A study of Mus musculus with 8 samples.

Results

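The immediate early genes described here were 10 genes, Arc, Fos, Fosb, Fosl1, Fosl2, Jun, Junb, Egr1, Egr2 and Ier3, among the 55414 genes of the count table. They were taken by matching Ensembl mouse gene identifiers to these symbols. The list was chosen by the measured difference in CPM between the treatments, which was already known, so that difference is given below as a description, with no p-value for any of the 10 genes. RNA-Seq was done on mammary tumors from the PyMt cell line, a line set up from a tumor of an MMTV-PyMt transgenic mouse, in which a viral promoter active in mammary epithelium drives the polyoma middle T oncogene. The cells were implanted in the mammary fat pad of WT female C57BL/6 mice aged 6 to 8 weeks. The EtOH group (4 tumors, replicates 1 to 4) received the solvent topically, and the calcipotriol group (4 tumors, replicates 1, 5, 6 and 7) received 20 nmol of calcipotriol, a vitamin D analog, dissolved in EtOH. Treatment was given every 2 days from 2 days after implantation, with tumors removed 24 hours after the final application.

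Immediate early genes are transcribed within minutes of a stimulus such as a growth factor, stress or calcium entry, from factors already present in the cell and without new protein synthesis. MAP kinase signaling acts on SRF with its ELK partners and on CREB at their promoters. Many of the transcripts decay quickly, so their level at a given time reflects recent signaling rather than an earlier pulse. Fos and Jun proteins pair through leucine zippers to form the transcription factor AP-1, and EGR proteins are zinc finger factors that bind GC-rich DNA. These genes are also known to respond to the handling and dissociation of tissue.

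Values are given as CPM, counts scaled to a common library total with TMM factors, under the assumption that most genes do not change. Libraries held 19685419 to 25084713 counts, so 3 counts correspond to 0.119 to 0.146 CPM. All 10 genes were far above that level, the lowest count being 56 for Arc. The labels call the cell type epithelial. Krt8 and Krt18, keratins of simple epithelium, stood at 593 ± 67.4 and 558 ± 90.4 CPM in EtOH-treated tumors, whereas Epcam, an epithelial adhesion molecule, stood at 1.79 ± 2.15 CPM (SD, n = 4). The tumors also held host cells. Summed macrophage markers (8 genes) ran from 3076 to 4069 CPM with EtOH and from 1287 to 2235 CPM with calcipotriol. In such bulk RNA, fewer cells of a type and less RNA per cell cannot be told apart. The paper reports that macrophages counted by tissue staining increased with calcipotriol in this tumor model. In the RNA, 7 of the 8 macrophage markers had a log2 fold change below 0, and Cd163 stood at 1.87. Lyz2, the largest part of the sum, had −1.75, and Adgre1 had −1.24. The reason for the difference between RNA and staining was not tested.

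Some tumors were closer to each other than to the rest of their group. Over 10715 genes, log2 CPM correlated at 0.974 between EtOH 1 and 2, at 0.978 between EtOH 3 and 4 and at 0.979 between calcipotriol 6 and 7. Other tumors of one group reached at most 0.964, and tumors of different groups at most 0.936. The labels do not say whether the close tumors share a mouse or a preparation. Calcipotriol 1 stood apart from the other calcipotriol-treated tumors, with 0.938, 0.935 and 0.922 for calcipotriol 7, 6 and 5. It was about as close to EtOH 3 and 4, with 0.936 and 0.933, and had 0.914 and 0.9 with EtOH 1 and 2. The p-values below therefore measure only the spread between these 8 libraries, and results are given with close tumors summed and without calcipotriol 1 where that matters.

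The 4 AP-1 genes Fos, Fosb, Jun and Junb have a promoter window in RefSeq (GRCm38.p6), and their sequences are shown because Fos and Fosb differed between the groups by over 1 on the log2 scale while Jun and Junb did not. The windows cover the 250 bases before the RefSeq start site, read 5′ to 3′ on the strand of the gene. They lie at chr12:85473640-85473889 on the plus strand for Fos, and on the minus strand at chr7:19310046-19310295 for Fosb, chr4:95052223-95052472 for Jun and chr8:84978749-84978998 for Junb. Capitals mark TGACG, the core shared by sites of CREB and related factors.
Fos: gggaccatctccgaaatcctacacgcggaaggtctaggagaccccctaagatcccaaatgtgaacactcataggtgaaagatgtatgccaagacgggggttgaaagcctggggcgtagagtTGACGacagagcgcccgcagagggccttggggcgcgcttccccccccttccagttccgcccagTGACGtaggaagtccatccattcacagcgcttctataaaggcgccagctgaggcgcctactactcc
Fosb: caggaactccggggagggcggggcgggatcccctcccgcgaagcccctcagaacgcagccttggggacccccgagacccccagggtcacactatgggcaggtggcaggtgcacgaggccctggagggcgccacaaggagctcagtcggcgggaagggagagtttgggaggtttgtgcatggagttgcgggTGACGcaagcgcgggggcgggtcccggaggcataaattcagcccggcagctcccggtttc
Jun: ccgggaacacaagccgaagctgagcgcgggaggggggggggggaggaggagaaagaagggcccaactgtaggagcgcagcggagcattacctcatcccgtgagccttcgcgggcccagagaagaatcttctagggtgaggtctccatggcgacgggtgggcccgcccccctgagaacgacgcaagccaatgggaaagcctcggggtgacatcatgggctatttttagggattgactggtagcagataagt
Junb: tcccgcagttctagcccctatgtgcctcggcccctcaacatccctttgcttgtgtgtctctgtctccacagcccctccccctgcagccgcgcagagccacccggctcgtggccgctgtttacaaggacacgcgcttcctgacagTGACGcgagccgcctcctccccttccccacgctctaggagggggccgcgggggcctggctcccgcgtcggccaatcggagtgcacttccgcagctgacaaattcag

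TGACG, searched on both strands, was found at −129 and −66 in Fos, at −60 in Fosb and at −106 in Junb, and it was not found in the Jun window. Positions count back from the start site. This motif is held by 17.9% of 27025 promoter windows of the same length. The full palindrome TGACGTCA, which contains TGACG and is held by 1.62% of windows, and the AP-1 motif TGANTCA, held by 6.87%, were in none of the 4 windows. Only exact matches were counted, and near matches were not searched for in any window. The Jun window holds TGACATCA, which differs from the palindrome in a single base, so a related site there is not excluded. TATAAA was found in Fos only, at −33, and is held by 13.0% of windows. GGGCGG (32.9% of windows) was found in Fos, Fosb and Jun, CCAAT (34.5%) in Jun and Junb, the EGR motif GCGNGGGCG (4.65%) in Fosb, and the kappaB motif (7.01%) in Fos and Fosb. Outside these 4 genes, the kappaB motif was also upstream of Fosl2, Egr2 and Ier3, and GCGNGGGCG of Fosl2. The CArG box, the motif of SRF, was found in none of these 4 windows. Bases further upstream than 250 were not searched, so a site there would not be seen. The CArG box was found upstream of 4 of the 5 start sites listed for Egr2. It was held by 1.4% of all windows, counted with a single window per gene. The Egr2 windows of the starts at 67537869, 67537870 and 67537930 overlap and hold the same match. The window of the start at 67537566 does not overlap them and holds another match. The motif of the vitamin D receptor, AGGTCA repeated with 3 bases between, was in no window of these genes and in 0.0074% of all windows. These matches describe letters within the windows and were not linked to binding by any measurement. Arc, Fosl1 and Egr1 were not searched.

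Of the 10 genes, Arc, Fosb and Fos differed the most between the groups, and each was higher in calcipotriol-treated tumors. Egr2 was also higher in every calcipotriol-treated tumor than in any EtOH-treated tumor. The level of Ier3 was higher on average with overlapping groups, and Fosl2, Junb, Jun, Egr1 and Fosl1 had log2 fold changes between −0.08 and 0.28. The median log2 fold change of the 10 genes was 0.46, beside 0.019 over all 14458 genes tested, and 9 of the 10 were above 0, beside 52.1% of all genes. Arc, Fos and Fosb were past both thresholds of the study, a Benjamini-Hochberg adjusted p under 0.05 in edgeR's quasi-likelihood test and a log2 fold change of 1 or more in either direction. Over all genes tested 1.07% were past both thresholds on the higher side. For 4 of the 10 genes all calcipotriol-treated tumors were above all EtOH-treated tumors, as for 6.32% of all genes, and for none were they all below, as for 6.16% of all genes. With the close tumors summed, 0 of the 10 genes passed both thresholds in edgeR and limma-voom and 2 in DESeq2. Nothing is read from these counts, since the same difference chose the genes. Of the genes past both thresholds, Fos had the smallest log2 fold change, 1.15. Of the rest, Ier3 had the largest, 0.78, and it missed the adjusted p threshold as well.

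**Figure D1:**
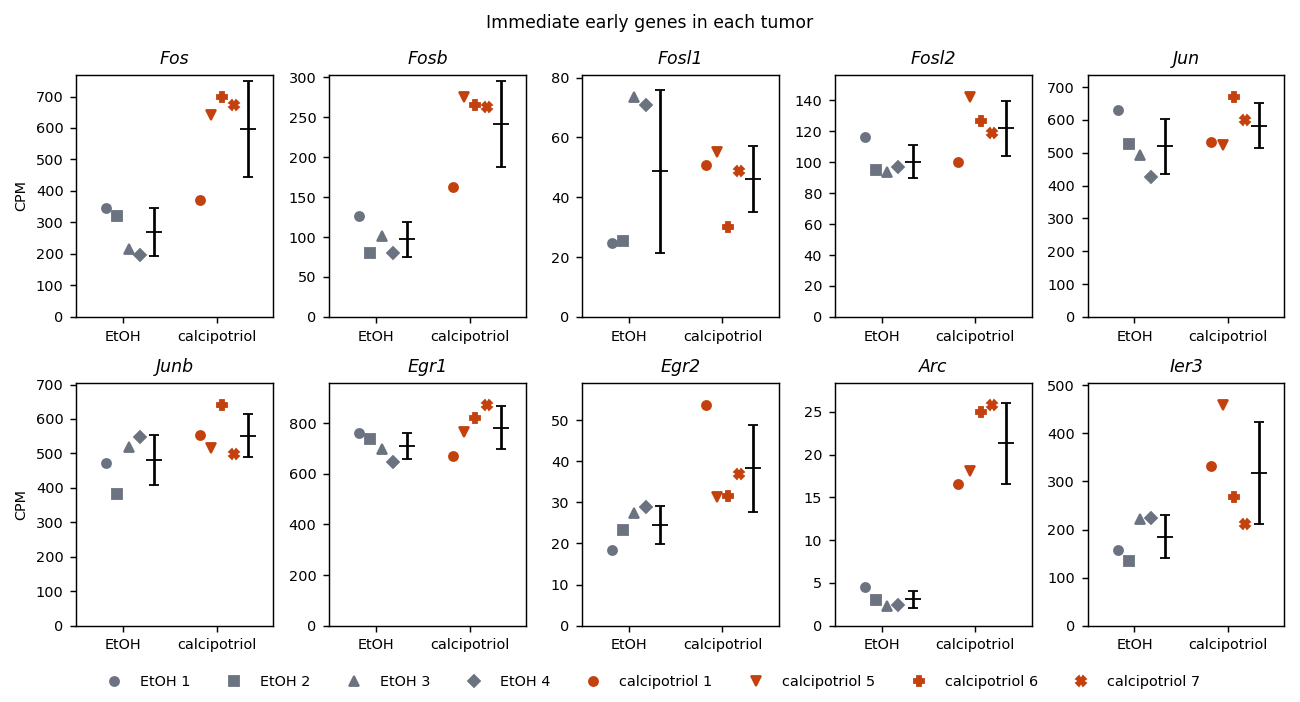
CPM of each of the 10 genes in each tumor, with the scale of each panel starting at 0. Symbols are single tumors, the black mark beside each group is the mean with 1 SD (n = 4), and the groups do not overlap for Fos, Fosb, Egr2 and Arc.

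Fos, on chromosome 12 (85473890 to 85477273, plus strand, GENCODE M21), encodes the founding Fos protein of AP-1. It was measured at 346, 321, 214 and 197 CPM in EtOH 1, 2, 3 and 4 and at 370, 642, 700 and 674 CPM in calcipotriol 1, 5, 6 and 7. Calcipotriol 1 lay close to EtOH 1, at 1.07 times its level, while the other calcipotriol-treated tumors were well above every EtOH-treated tumor. The means were 269.5 ± 75.0 and 596 ± 153 CPM, a log2 fold change of 1.15 with a standard error of 0.246. Without calcipotriol 1 it was 1.32, and without EtOH 4 it was 1.02. Fos passed both thresholds without calcipotriol 1, and it did not in any of the 7 fits that left out another single tumor. Arc and Fosb passed in each of these fits. These outcomes are a description only, since the same difference chose the genes.

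Fosb, on chromosome 7 (19302696 to 19310051, minus strand), encodes a close relative of Fos that has long-lived splice forms, which were not separated in these gene counts. EtOH 1, 2, 3 and 4 had 126, 80.6, 102 and 80.3 CPM, and calcipotriol 1, 5, 6 and 7 had 162, 276, 265 and 263 CPM. As for Fos, calcipotriol 1 was the lowest of its group and the other calcipotriol-treated tumors lay within a narrow range. The means were 97.2 ± 21.8 and 242 ± 53.3 CPM, and the log2 fold change was 1.31 with a standard error of 0.207. It ranged from 1.23 to 1.47 when single tumors were left out.

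Fosl1, on chromosome 19 (5447547 to 5455946, plus strand), encodes Fra-1, an AP-1 protein known from invasive breast cancer cells. Its levels were 24.8, 25.3, 73.6 and 70.8 CPM in EtOH 1, 2, 3 and 4 and 50.7, 55.2, 30.0 and 48.8 CPM in calcipotriol 1, 5, 6 and 7. The EtOH-treated tumors fell into a low and a high pair, with every calcipotriol-treated tumor between them. The means were 48.6 ± 27.3 and 46.2 ± 11.1 CPM, and the log2 fold change was −0.08 with a standard error of 0.37. Its direction depended on single tumors, being −0.29 without EtOH 1 and 0.20 without EtOH 3. The split was not particular to Fosl1. Fos, Jun, Egr1 and Arc were higher in both EtOH 1 and 2 than in EtOH 3 and 4. Junb, Egr2 and Ier3 were lower there, and Fosb and Fosl2 did not split by these pairs. The same EtOH 3 and 4 differed from EtOH 1 and 2 in summed skeletal muscle markers (6 genes), with 34.0 and 34.9 CPM against 0.827 and 0.925 CPM, and in neutrophil markers (6 genes), with 31.7 and 30.3 CPM against 91.7 and 102 CPM. They also differed in endothelial markers (7 genes), with 142 and 134 CPM against 278 and 314 CPM, and in erythroid markers (6 genes), with 3510 and 3457 CPM against 5595 and 5836 CPM. The part of these in the level of Fosl1 was not tested. Fosl1 shares 1163 exon bases with Ccdc85b on the opposite strand, which had 1754 to 3864 counts, and how reads were divided between them is uncertain.

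Fosl2, on chromosome 5 (32135801 to 32157842, plus strand), encodes Fra-2. It was the steadiest of the Fos family, with 116, 94.8, 93.7 and 97.3 CPM in EtOH 1, 2, 3 and 4 and 99.9, 143, 127 and 119 CPM in calcipotriol 1, 5, 6 and 7. Again calcipotriol 1 was the lowest of its group, and it lay below EtOH 1. The log2 fold change was 0.28 with a standard error of 0.137.

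To compare levels between genes, CPM was divided by the exon length of each gene in kilobases. The 4 Fos family genes together reached 191, 172, 153 and 141 CPM per kb in EtOH 1, 2, 3 and 4 and 218.5, 359, 368 and 365 CPM per kb in calcipotriol 1, 5, 6 and 7. Fos made up the largest share in every tumor, with 68.7 ± 11.0% of the summed level with EtOH and 76.9 ± 3.80% with calcipotriol. Fosl1 accounted for 6.38% and 7.23% in EtOH 1 and 2 and for 23.6% and 24.7% in EtOH 3 and 4. In calcipotriol-treated tumors the Fosl1 share lay between 4.02% and 11.4%.

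**Figure D2:**
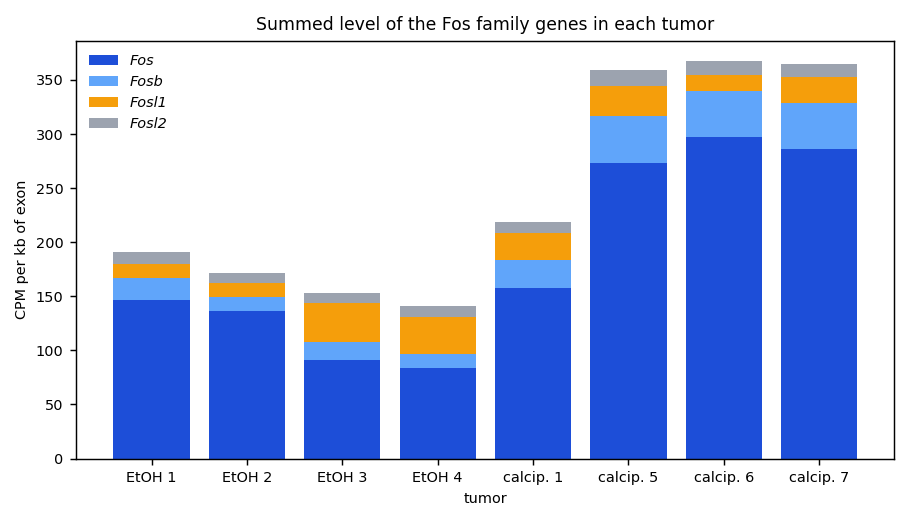
Summed level of Fos, Fosb, Fosl1 and Fosl2 in each tumor, in CPM per kb of exon, stacked by gene. Fos forms the largest block in each bar, the Fosl1 block is widest in EtOH 3 and 4, and calcipotriol 5, 6 and 7 stand at 359 to 368 CPM per kb.

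Jun, on chromosome 4 (95049034 to 95052222, minus strand), encodes the main dimer partner of the Fos proteins. EtOH 1, 2, 3 and 4 had 630, 527, 495 and 427 CPM, and calcipotriol 1, 5, 6 and 7 had 533, 525, 671 and 599 CPM. The groups overlapped widely, and the log2 fold change was 0.16 with a standard error of 0.153. Junb, on chromosome 8 (84974484 to 84978718, minus strand), encodes a partner with weaker activating capacity than Jun. It had 473, 382, 518 and 548 CPM in EtOH 1, 2, 3 and 4 and 552, 515, 640 and 498 CPM in calcipotriol 1, 5, 6 and 7. These groups overlapped too, with a log2 fold change of 0.20 and a standard error of 0.15. Together Jun and Junb stood at 372 ± 30.1 CPM per kb with EtOH and 422 ± 45.0 CPM per kb with calcipotriol, beside 164.5 ± 21.9 and 328 ± 72.8 CPM per kb for the Fos family. Whether the Fos family and the Jun genes differed in their response was not tested. Jun shares 232 exon bases with the antisense gene Junos, which had at most 54 counts, and Junb shares 173 with Prdx2 on the opposite strand, which had 6565 to 8493 counts.

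Egr1, on chromosome 18, encodes a zinc finger factor induced by growth factors and stress. In CPM, which is not length-scaled, it varied least among the 10 genes in EtOH-treated tumors, with a coefficient of variation of 7.10%. Its levels were 760, 737, 697 and 645 CPM in EtOH 1, 2, 3 and 4 and 671, 766, 822 and 870 CPM in calcipotriol 1, 5, 6 and 7. Only calcipotriol 5, 6 and 7 exceeded every EtOH-treated tumor, and the log2 fold change was 0.14 with a standard error of 0.132. Egr2, on chromosome 10 (67535475 to 67542188, plus strand), encodes a related factor known from Schwann cell myelination and from T cell restraint. It had 18.5, 23.4, 27.3 and 28.9 CPM in EtOH 1, 2, 3 and 4 and 53.6, 31.2, 31.5 and 36.8 CPM in calcipotriol 1, 5, 6 and 7.

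Calcipotriol 1 thus had the highest Egr2 of its group although it had the lowest Fos, Fosb, Fosl2, Egr1 and Arc. The log2 fold change of Egr2 was 0.64 with a standard error of 0.211, and 0.44 without calcipotriol 1. Summed T cell markers (6 genes) were also highest in calcipotriol 1, at 11.2 CPM, while calcipotriol 5, 6 and 7 had 1.44 to 3.15 CPM and the EtOH group 1.19 to 2.04 CPM. None of these markers was at 0 in all tumors. Schwann cell markers (5 genes) ran from 3.65 to 9.88 CPM with EtOH and from 3.39 to 7.03 CPM with calcipotriol, and the marker Cdh19 was at 0 in all tumors. The part of T cells in the level of Egr2 was not tested.

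Arc, on chromosome 15 (74669083 to 74672570, minus strand), encodes a capsid-forming protein best known from synapses, where its RNA follows neuronal activity, and it is also transcribed in migrating dendritic cells. It had the largest difference of the 10 genes and the lowest level in EtOH-treated tumors. EtOH 1, 2, 3 and 4 had 4.52, 3.02, 2.31 and 2.47 CPM, from 93, 62, 57 and 56 counts. Calcipotriol 1, 5, 6 and 7 had 16.6, 18.04, 25 and 25.8 CPM, from 417, 395, 520 and 608 counts. The lowest calcipotriol-treated tumor was 3.66 times the highest EtOH-treated tumor. The means were 3.08 ± 1.01 and 21.4 ± 4.72 CPM, and the log2 fold change was 2.79 with a standard error of 0.276. It stayed between 2.68 and 3.04 when any single tumor was left out.

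Neuron markers (6 genes) summed to 0.973 to 7.19 CPM with EtOH and to 3.22 to 20.3 CPM with calcipotriol, and Snap25, a defining synaptic gene, was at 0 in all 8 tumors. The highest sum was in calcipotriol 1, where Tubb3 made up 16.2 CPM of it. Dendritic cell markers (6 genes) summed to 4.18 to 10.5 CPM with EtOH and to 4.98 to 8.66 CPM with calcipotriol, with no marker at 0 in all tumors. Among these, Zbtb46, named after its values were seen, was higher in every calcipotriol-treated tumor than in any EtOH-treated tumor. The same held for 6.32% of all genes. For Zbtb46 the means were 3.76 CPM with calcipotriol and 1.72 CPM with EtOH, with a log2 fold change of 1.12 and an adjusted p of 0.148 (edgeR). The other 2 tested markers of the list were below 0, Clec9a at −1.39 and Ccr7 at −0.445, and the median of the list was −0.445. The part of neurons or dendritic cells in the level of Arc was not tested.

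Ier3, on chromosome 17 (35821684 to 35822923, plus strand), encodes a stress-induced regulator of apoptosis and of ERK and NF-kappaB signaling. It had 158, 135, 223 and 224 CPM in EtOH 1, 2, 3 and 4 and 333, 458, 268 and 212 CPM in calcipotriol 1, 5, 6 and 7. Calcipotriol 7 lay within the range of the EtOH-treated tumors and the other calcipotriol-treated tumors above it. The log2 fold change was 0.78 with a standard error of 0.249, and it was 0.55 without calcipotriol 5.

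Ordered by level per kb of exon in EtOH-treated tumors, Junb was first with 209 ± 31.5 CPM per kb, followed by Ier3 with 163 ± 39.9, Jun with 163 ± 26.5, Egr1 with 158 ± 11.2 and Fos with 115 ± 31.9. The ranges of neighboring genes among these 5 overlapped. A second tier held Fosl1 with 23.9 ± 13.4, Fosb with 15.6 ± 3.49, Fosl2 with 10.4 ± 1.09 and Egr2 with 7.21 ± 1.37 CPM per kb, of which only Fosl1 and Fosb overlapped as neighbors. Arc was last with 1.01 ± 0.330 CPM per kb. With calcipotriol, Fos moved from the fifth to the second place with 254 ± 65.0 CPM per kb, behind Ier3 with 281 ± 93.7 CPM per kb, and these ranges overlapped. Arc was still last, with 6.98 ± 1.54 CPM per kb. Against all genes tested, it stood at the 22.6th percentile of level per kb with EtOH and at the 61.1st with calcipotriol, whereas Jun, Junb, Egr1 and Ier3 lay between the 97.9th and the 98.8th percentile in both groups.

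The 10 genes did not vary together from tumor to tumor. After subtraction of the group means from log2 CPM, Pearson's r over the 8 tumors had a median of 0.064 for the 45 pairs of genes, and 23 pairs were above 0. Values ran from −0.931 for Fos and Egr2 to 0.909 for Fos and Egr1. Arc with Jun reached 0.88 and Fosb with Fosl2 0.854, while Fosl1 with Jun stood at −0.817. Arc, Jun, Fos and Egr1 were positively related to each other and negatively to Fosl1, Egr2 and Ier3. Without calcipotriol 1 the median was 0.035 and the range −0.942 to 0.875. Some of these tumors resembled each other closely, so the values may rest on fewer than 8 independent tumors, and no p-value is given.

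**Figure D3:**
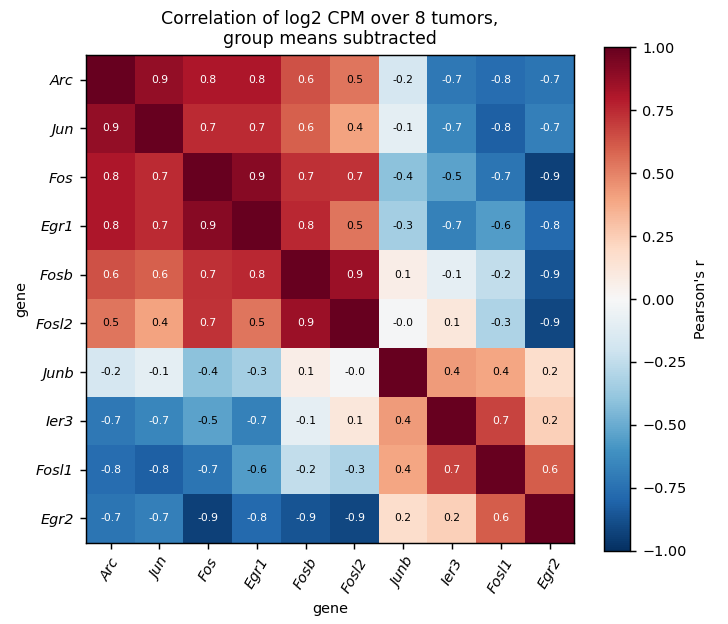
Pearson's r of log2 CPM for each pair of the 10 genes over 8 tumors after group means were subtracted, from blue (−1) to red (1). Arc, Jun, Fos and Egr1 form a red block and are blue against Fosl1, Egr2 and Ier3, with extremes of −0.931 and 0.909.

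Other genes of the same class were taken from a list of 37, of which 35 could be tested and Egr4 and Npas4 could not. Dusp2 rose and Egr3 fell past both thresholds, and 33 did neither. The list had a median log2 fold change of 0.24, with 24 genes above 0. Of all genes tested, 2.02% passed both thresholds in either direction. With the close tumors summed, neither gene passed (edgeR), 11 of the 35 had an unadjusted p under 0.05, and over all genes 0 of 16594 passed with 1494 at an unadjusted p under 0.05. Summed in the same way, 0 genes passed in limma-voom (1649 at an unadjusted p under 0.05) and 369 in DESeq2, 2 of them in this list.

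Egr3, the third EGR family gene and a regulator of lymphocyte activation and angiogenic signaling, had 124, 105, 93.4 and 78.1 CPM in EtOH 1, 2, 3 and 4 and 55.9, 40.9, 44.8 and 50.5 CPM in calcipotriol 1, 5, 6 and 7. The groups did not overlap. On the log2 scale the fold change was −1.06 with a standard error of 0.163 and an adjusted p of 0.0111 (edgeR). It fell short of the fold threshold without EtOH 1, at −0.94, and without calcipotriol 5, at −0.99. Its direction was opposite to that of Egr1 and Egr2, and the difference between these genes was not tested. Summed endothelial markers (7 genes, 4 lower past both thresholds) ran from 134 to 314 CPM with EtOH and from 54.0 to 106 CPM with calcipotriol. Macrophage markers (8 genes) had 3 lower and 1 higher past both thresholds. Over all genes tested, 0.948% were lower and 1.07% higher past both. None of either list was at 0 in all tumors, and their part in the level of Egr3 was not tested.

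Dusp2, a nuclear phosphatase that switches off ERK, had 7.15, 5.99, 7.21 and 8.69 CPM in EtOH 1, 2, 3 and 4 and 11.4, 23.5, 18.9 and 19.8 CPM in calcipotriol 1, 5, 6 and 7. Calcipotriol 1 was again the lowest of its group. The log2 fold change was 1.34 with a standard error of 0.243 and an adjusted p of 0.0207 (edgeR). Leaving out EtOH 1, 2 or 3 or calcipotriol 5, 6 or 7 took the adjusted p to between 0.0544 and 0.0695. Named after their values were seen, Nfkbiz, Ccn2 and Sgk1 had an adjusted p of 0.0201, 0.024 and 0.0262 with log2 fold changes of 0.99, 0.98 and 0.95, short of the fold threshold. On the adjusted p alone, 4 genes of the list were higher and 1 lower, beside 2.74% of all genes in either direction.

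**Figure D4:**
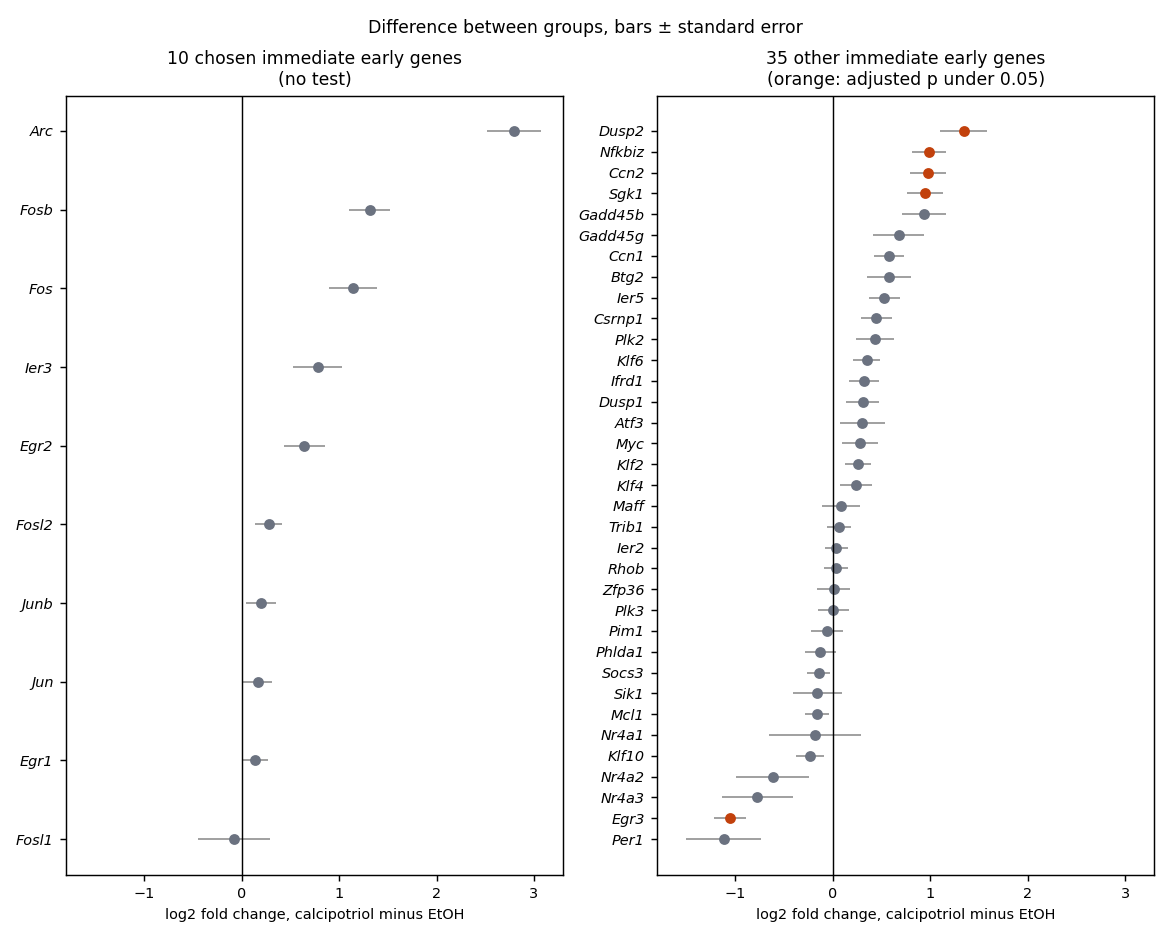
Log2 fold change (calcipotriol minus EtOH) with bars of 1 standard error for the 10 genes, left, which carry no test, and for 35 other immediate early genes, right, with an adjusted p under 0.05 (edgeR) in orange. Arc stands at 2.79, and on the right the orange points are Dusp2, Nfkbiz, Ccn2 and Sgk1 above 0 and Egr3 at −1.06.

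The genes that act with, before and after the immediate early genes were described in the same way. Among 14 further AP-1 and bZIP partner genes, 0 passed both thresholds in edgeR and 2 had an unadjusted p under 0.05, beside 18.4% of all genes tested, with 0 past both thresholds in DESeq2 and limma-voom as well. Maf, a large Maf factor of macrophages and lens, had a log2 fold change of −0.84 (adjusted p = 0.0725), and the small Maf protein Mafg had 0.29 (adjusted p = 0.279). Without calcipotriol 1, Maf passed both thresholds with −1.04 (adjusted p = 0.0142). Among 17 upstream regulators, including SRF, ELK, CREB and MAP kinase genes, 0 passed in edgeR, DESeq2 and limma-voom, 4 had an unadjusted p under 0.05, beside the same 18.4% of all genes, and the median log2 fold change was −0.20. Mapk8, the stress kinase JNK1 that phosphorylates Jun, had 0.46 (adjusted p = 0.223), Mapk14, the stress kinase p38 alpha, −0.31 (adjusted p = 0.246), and Rps6ka1, a kinase downstream of ERK, −0.80 (adjusted p = 0.253). Without calcipotriol 1, Rps6ka1 passed with −1.34 (adjusted p = 0.00356).

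Of 18 feedback genes, which encode phosphatases, Sprouty and NAB proteins and RNA decay factors that end the response, 1 rose past both thresholds, Dusp2, and none fell. Over all genes tested, 1.07% passed both thresholds on the higher side and 0.948% on the lower side. The median log2 fold change of the feedback genes was −0.07, and 5 of the 18 had an unadjusted p under 0.05 (edgeR), beside 18.4% of all genes. Zfp36l1, which promotes decay of AU-rich transcripts, had −0.45 (adjusted p = 0.163), and Nab1, a corepressor of EGR proteins, −0.36 (adjusted p = 0.173). Of 16 genes known as AP-1 or EGR targets, 2 rose past both thresholds and none fell, beside the same 1.07% and 0.948% of all genes. The median of these 16 was 0.32, and 8 of them had an unadjusted p under 0.05 (edgeR), beside the same 18.4%. Hmox1, the heme-degrading oxygenase, had 51.3, 52.7, 106 and 118 CPM in EtOH 1, 2, 3 and 4 and 160, 262.5, 223 and 218 CPM in calcipotriol 1, 5, 6 and 7, with a log2 fold change of 1.40, a standard error of 0.286 and an adjusted p of 0.0325. Timp1, an inhibitor of matrix metalloproteinases, had a log2 fold change of 1.18 (adjusted p = 0.0432). Both genes were higher in EtOH 3 and 4 than in EtOH 1 and 2, as Fosl1 was. Leaving out EtOH 1, 2 or 3 or calcipotriol 5, 6 or 7 took the adjusted p to between 0.0503 and 0.092 for Hmox1 and to between 0.0598 and 0.123 for Timp1.

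Heat shock genes, which follow protein damage and tissue stress, are described because they share triggers with immediate early genes. Of 9 genes, Hspa1b and Hspb1 rose past both thresholds in edgeR, with log2 fold changes of 1.18 (adjusted p = 0.0325) and 1.04 (adjusted p = 0.0459), none fell, and the median was 0.74. Over all genes tested, 1.07% rose past both thresholds. An unadjusted p under 0.05 (edgeR) was found for 6 of the 9, beside 18.4% of all genes. Hspa1b and its near-identical copy Hspa1a may share reads, so their split is uncertain. Without calcipotriol 1, 3 genes passed. Hspb1 lost its call when any other single tumor was left out (adjusted p 0.0718 to 0.135), and with limma-voom it stood at 0.99, short of the fold threshold. The call was also lost for Hspa1b when EtOH 1, 2, 3 or 4 or calcipotriol 6 or 7 was left out (adjusted p 0.0541 to 0.0967). Hspb1, a small chaperone, had 328, 283, 232 and 242 CPM in EtOH 1, 2, 3 and 4 and 343, 467, 735 and 683 CPM in calcipotriol 1, 5, 6 and 7. Hspa1b, an inducible Hsp70 chaperone, had 827, 655, 613 and 574 CPM and, in the same order of calcipotriol-treated tumors, 1024, 1119, 2072 and 1825 CPM. For these and for Hsph1 and Dnajb1, all calcipotriol-treated tumors were above all EtOH-treated tumors, as for 6.32% of all genes. In these heat shock genes calcipotriol 1 was the lowest of its group, as it was for Fos, Fosb and Arc. This did not hold for the whole list. Bag3 was highest in calcipotriol 1, at 123 CPM against 97.5 to 104.5 CPM in calcipotriol 5, 6 and 7, and Hspa8 was lowest in calcipotriol 6. The summed level of the list overlapped between the groups, at 4729 to 5310 CPM with EtOH and 5117 to 7212 CPM with calcipotriol. The constitutive Hspa8, with a log2 fold change of −0.05, held the largest part of that sum. The part of tissue stress in the level of any of the 10 genes was not tested.

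**Figure D5:**
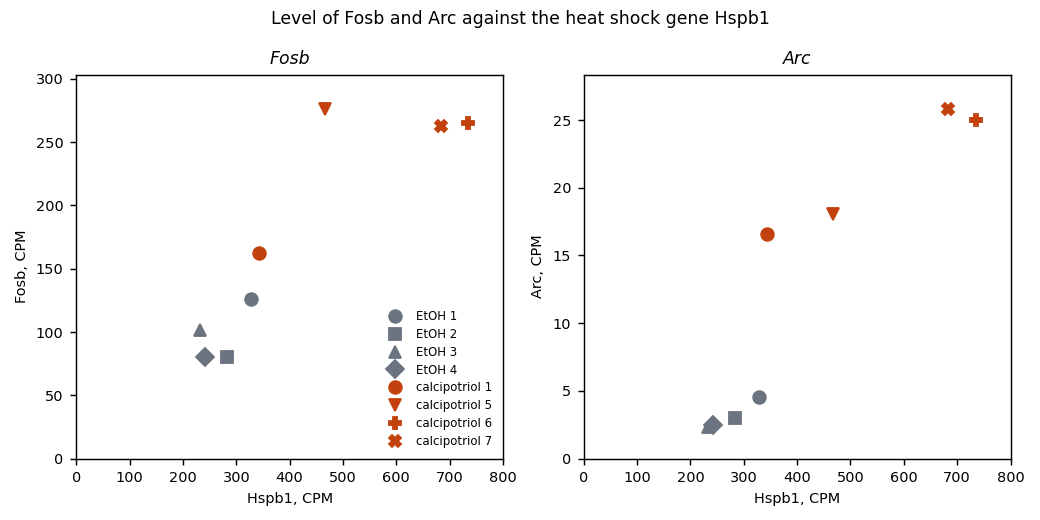
Level of Fosb, left, and Arc, right, in CPM against the heat shock gene Hspb1 in CPM, one symbol per tumor. Fosb, Arc and Hspb1 were each picked by their group difference, so a rise across the groups follows from that choice and is not read as a relation. Calcipotriol 1, at 343 CPM of Hspb1, stands just to the right of the EtOH-treated tumors at 232 to 328 CPM, and calcipotriol 5, 6 and 7 stand at 467 to 735 CPM.

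The other marker lists are given by their summed levels. Beside their counts, 0.948% of all genes tested were lower past both thresholds and 1.07% higher. Erythroid markers (6 genes, 5 lower past both thresholds) ran from 3457 to 5836 CPM with EtOH and from 434 to 820 CPM with calcipotriol. Epithelial markers (7 genes, none past both thresholds) ran from 1012 to 1322 CPM and from 593 to 891 CPM. That sum was mostly Krt8 and Krt18, with log2 fold changes of −0.69 and −0.93, while the other 4 tested markers were above 0 and the median of the list was 0.42. Adipocyte markers (5 genes, 1 lower) ran from 28.4 to 34.8 CPM and from 12.9 to 20.6 CPM, mostly from Fabp4, with −1.19, while Adipoq had 0.80 (adjusted p = 0.818). Squamous epithelium markers (9 genes, 1 higher) ran from 11.8 to 14.9 CPM and from 5.72 to 64.3 CPM and overlapped between the groups, with Flg at 0 in all tumors. Fibroblast markers (7 genes), at 5095 to 6053 and 3847 to 6757 CPM, overlapped between the groups, as did neutrophil markers, at 30.3 to 102 and 38.5 to 148 CPM, and skeletal muscle markers, at 0.827 to 34.9 and 0.517 to 5.43 CPM. The part of these cell types in the levels of the 10 genes was not tested.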

How the data were processed

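Total RNA of 8 tumors was sequenced from NEBNext Ultra libraries. The labels name a NovaSeq6000 and the study's methods a HiSeq instrument. The authors deposited expected counts per gene (estimated counts, not normalized, 1 column per tumor). The submitters' processing notes name STAR 2.5.3, RSEM 1.3.1, DESeq2 1.24.0 and the build GRCm38. The annotation release and the strand setting are not given in the sources used here, so reads of overlapping genes on opposite strands may not be separated. Between 4.2% and 6.22% of the values per tumor were not whole. The table has 0 columns of other samples.

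Counts were rounded, genes were filtered with filterByExpr (14458 kept), and treatments were tested with edgeR 4.0.16 under R 4.3.3 (TMM, glmQLFit, glmQLFTest, Benjamini-Hochberg over all genes tested). The study's own test was limma. The biological coefficient of variation was 0.347. log2 CPM used a prior count of 2. Identifiers were matched to GENCODE M21 (GRCm38), which gave a symbol to 52081 of 55414. Levels per kb used its merged exons. Groups were taken from the treatment labels. Standard deviations are over tumors, and count floors cover counting error only.

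The 10 genes, the other lists and the tests were chosen with earlier results of these data known. All 10 genes are named, together with the genes of each other list past both thresholds (at most 4), or those of smallest p (up to 3) where fewer than 2 passed, and the 8 protein-coding genes of at least 5 CPM most like the mean of the 10. A result under this rule is not reported here. Alternatives were DESeq2's size factors, no filter, at least 10 counts in every tumor, DESeq2 1.42.0, limma-voom (limma 3.58.1), no fold change minimum, each tumor left out in turn and, added after seeing the data, the closest tumors summed. On simulated data in which 200 of 14277 genes differed by 2 on the log2 scale, edgeR recovered 191 with 5 false calls, limma-voom 189 with 4 and DESeq2 190 with 30. The simulated tumors were independent, with the same dispersion for every gene. These figures therefore do not apply to the close tumors here or to differences smaller than 2.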

Additional observations from a re-analysis of the deposited data

Results flagged for a closer look

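In the calcipotriol group, the lowest tumor stood far from the others for Fos and Fosb. Calcipotriol 1 had 370 CPM of Fos against 642 to 700 CPM in calcipotriol 5, 6 and 7. On the scale of log2 CPM, its gap to the next tumor was 0.864 of the whole range of the group. For Fosb calcipotriol 1 had 162 CPM against 263 to 276 CPM, and the gap was 0.911 of the range on the same log2 scale. On the log2 scale both gaps exceed Dixon's 95% critical value for 4 tumors. Whether they do so on CPM itself was not tested. Of the 20 groups examined (10 genes in 2 treatments), these 2 exceeded the critical value, and among independent tumors chance does so in about 1 of 20. Calcipotriol 6 and 7 resembled each other closely, so the 4 tumors may not be independent. Both exceedances come from the same tumor, in which the heat shock genes Hspb1 and Hspa1b were also lowest of the group, at 343 CPM against 467 to 735 CPM and at 1024 CPM against 1119 to 2072 CPM. The heat shock gene Bag3 was highest in that tumor, at 123 CPM. Without calcipotriol 1, the log2 fold change was 1.32 for Fos and 1.46 for Fosb.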

How the results depend on the processing

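The number of genes past both thresholds was 292, and it was 458 without a filter on low counts, when 23750 genes were tested, 644 with DESeq2 and 0 with the closest tumors summed, where fewer samples were compared. It ranged from 110 without calcipotriol 6 to 642 without calcipotriol 1. For the other immediate early genes the number was 2, and it was 5 with no fold change minimum and 0 with the closest tumors summed. It ranged from 0 without calcipotriol 5 (edgeR, 11 genes at an unadjusted p under 0.05) to 6 without calcipotriol 1. The median log2 fold change of the 10 genes ranged from 0.39 to 0.50 when single tumors were left out, and it was 0.47 with the closest tumors summed. Of the 10 genes, 9 were above 0 in each of 14 alternatives, and Fosl1 in 4 of 14. Of the 8 genes most like the mean of the 10, 4 to 8 remained among the 50 most alike when single tumors were left out. The cause of these shifts was not tested beyond the numbers of genes and samples given. No paired analysis was possible because the groups share only the replicate number 1. Depth did not limit the 10 genes, whose lowest count was 56.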

Other observations

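The genes whose pattern was most like the mean of the 10 immediate early genes were found among 10445 protein-coding genes, by Pearson's r over 8 tumors with group means subtracted. They were Pnn, a splicing-associated nuclear protein, with 0.989, Zfp346 with 0.957, Clcf1, an IL-6 family cytokine, with 0.951, 2700081O15Rik with 0.949, the nuclear receptor gene Nr2f1 with 0.946, Dph1 with 0.943, Lrig1, a negative regulator of ERBB receptors, with 0.94 and Cspp1 with 0.939. Clcf1 stood at 41.3 CPM with EtOH and 94.9 CPM with calcipotriol, and Nr2f1 at 162 and 170 CPM. Because the 10 genes had a median pairwise r of 0.064, their mean stands for few of them. Values this high are chosen from many candidates over few tumors, and no p-value is given.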
